A study of Homo sapiens with 3 samples.

Results

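The genes described here are 9 genes of the NRF2 antioxidant and glutathione response, chosen by symbol from a table of 58735 genes measured in H660 cells. H660 (NCI-H660) cells are an established human line from a neuroendocrine cancer of the prostate, used here as parental cells. Cultures were treated for 24 h with the vehicle DMSO, with 2.5 μM JG231 or with 5 μM JG231, an allosteric inhibitor of the chaperone HSP70, and 1 RNA-seq library was made for each condition. With 1 library per condition there was no replicate, so no standard deviation and no p-value could be computed, and each comparison is one of libraries. All 9 symbols were found, each in 1 row. The labels call the cells prostatic adenocarcinoma. The neuroendocrine markers SYP, ENO2, CHGA, NCAM1 and INSM1 were all above 3 FPKM in every library, whereas the prostate luminal markers KLK3, KLK2 and TMPRSS2 were all below 1 FPKM in every library. CHGA, which encodes chromogranin A, was lower with JG231 by more than 1 on the log2 scale at both doses, with 46.0 FPKM in DMSO and 12.7 FPKM at the higher dose, and the part of this in the results given here was not tested.

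NRF2, encoded by NFE2L2, is a transcription factor that the adaptor KEAP1 normally hands to a CUL3 ubiquitin ligase for degradation. Oxidants and electrophiles modify cysteines of KEAP1, NRF2 then accumulates, pairs with a small MAF protein and binds antioxidant response elements near genes of glutathione synthesis, thioredoxin reduction, quinone detoxification and haem breakdown. NRF2 is controlled largely as a protein, which a transcript level does not measure. BACH1, a repressor released by haem, competes for the same elements, most clearly at HMOX1, and HMOX1 is also known as a gene of other stress responses.

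The core of the antioxidant response element, TGACNNNGC, was searched on both strands of the RefSeq promoter windows (GRCh38.p14), which run from 250 bases before to 50 bases after a start site. Windows were given for 8 of the 9 genes, 11 windows in all, with a pair each for NFE2L2, KEAP1 and TXNRD1, and HMOX1 had no entry. The core was present in 4 of the 11 windows, belonging to 3 genes (KEAP1, GCLM and TXNRD1), and in 13.3% of 35116 windows in the whole table. A match describes letters in this window only, and elements of HMOX1 and NQO1 are known farther upstream. The matches that lie wholly before the start site are printed with 10 bases on each side, because they mark which genes of the set carry the element close to a start. Capitals mark the 9-base match, which reads TGACNNNGC or its reverse complement, and each line is 5′ to 3′ on the strand of the gene.

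KEAP1, chromosome 19, minus strand, start site 10502771, match from 54 bases before: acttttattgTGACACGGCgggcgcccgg
KEAP1, same start site, match from 31 bases before: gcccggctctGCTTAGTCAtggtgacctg
GCLM, chromosome 1, minus strand, start site 93909430, match from 34 bases before: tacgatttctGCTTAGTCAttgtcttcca
TXNRD1, chromosome 12, plus strand, start site 104215779, match from 99 bases before: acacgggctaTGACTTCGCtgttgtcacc
TXNRD1, second start site 104287032, match from 102 bases before: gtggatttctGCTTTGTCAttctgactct

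KEAP1 and GCLM carried the same 9 letters, GCTTAGTCA. The KEAP1 matches belong to the inner of its start sites, and the window at the start of its canonical transcript had none. Another TXNRD1 match spans the start site at 104215779. No match was found in the windows of NFE2L2, NQO1, GCLC, SRXN1 and OSGIN1. The 250 bases before the start sites of GCLC and GCLM are printed as a pair, since their products form 1 enzyme and their transcripts differed between the libraries. The GCLC window is chr6:53545102-53545351 and the GCLM window is chr1:93909431-93909680, both on the minus strand of GRCh38.p14, with capitals marking the single match.

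GCLC: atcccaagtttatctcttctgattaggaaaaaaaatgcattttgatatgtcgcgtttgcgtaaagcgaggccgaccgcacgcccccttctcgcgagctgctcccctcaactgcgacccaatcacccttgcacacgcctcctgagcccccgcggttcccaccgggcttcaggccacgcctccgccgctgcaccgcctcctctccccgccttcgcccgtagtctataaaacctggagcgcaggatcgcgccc
GCLM: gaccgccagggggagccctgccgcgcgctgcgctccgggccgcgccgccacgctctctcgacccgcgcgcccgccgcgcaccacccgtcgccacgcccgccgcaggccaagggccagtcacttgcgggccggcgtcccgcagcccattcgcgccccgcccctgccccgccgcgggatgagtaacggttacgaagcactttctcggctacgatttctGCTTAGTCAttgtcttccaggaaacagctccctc

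Levels are given as FPKM, a fragment count divided by transcript length and library size, which the authors computed. Which length was used is not given in the sources used here, so levels of different genes can be compared only with caution. The annotated exons of NFE2L2 together cover 14975 bases and its canonical transcript 2446. For KEAP1 these lengths are 3573 and 2565. The fragments behind each value were estimated from the FPKM steps, and the libraries held 16.1 M fragments (DMSO), 20.4 M (2.5 μM) and 24.04 M (5 μM). Changes are log2((FPKM + 0.1)/(FPKM in DMSO + 0.1)), a scale that understates the change of low genes. The 95% intervals are Clopper-Pearson intervals of the plain log2 FPKM ratio. They cover counting error only, since PCR copies without molecular identifiers are not independent molecules. A second yardstick, the spread, is the robust SD of the log2 difference between the JG231 libraries over those 500 genes whose mean FPKM was closest. A gene was counted as past the fold if it exceeded 1 FPKM in either library compared and its log2 change exceeded 1. All 9 genes met the FPKM condition in each comparison, SRXN1 and OSGIN1 narrowly.

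HMOX1, NFE2L2 and GCLC were higher in the JG231 libraries by more than the other 6 genes, and no member was lower by more than 1 on the log2 scale at either dose. At 5 μM, 3 of 9 members were past the fold upwards (HMOX1, NFE2L2 and GCLC), where 14.7% of 15765 genes were, and 0 of 9 were past it downwards, where 24.3% were. At 2.5 μM, 2 of 9 were past it upwards (HMOX1 and NFE2L2) against 12.9% of 15746 genes, and 0 of 9 downwards against 21.7%. GCLC lay near the threshold at both doses. Its log2 change of 0.996 at 2.5 μM came to between 1.01 and 1.08 in 4 settings (a pseudocount of 0.01, a common FPKM sum, centring on the median gene and removal of the length trend), which made 3 members past the fold. The upward shares of all genes in these settings were, in the same order, 13.29%, 13.96%, 14.53% and 10.86%. At 5 μM the GCLC change of 1.10 became 0.986 with a pseudocount of 1 and 0.97 with a common FPKM sum. Each of these settings left 2 members past the fold, where 11.23% and 12.03% of all genes were past it upwards. The median log2 change of the 9 genes was 0.53 at 2.5 μM and 0.51 at 5 μM, beside -0.08 and -0.11 over all genes with over 1 FPKM. These background shares depend on expression level. Among the 7583 genes with a mean of at least 5 FPKM, which include 7 of the 9 members, 16.3% were past the fold upwards and 7.48% downwards at 5 μM, and 13.7% and 6.30% at 2.5 μM. The median change of those genes was positive, 0.21 at 2.5 μM and 0.23 at 5 μM. That of the 7 members among them was 0.55 and 0.62. HMOX1 reached the mean of 5 FPKM only through the JG231 libraries, with 1.21 FPKM in DMSO. The DMSO library is shared by the comparisons of both doses. In bulk RNA, fewer cells expressing a gene and less RNA per cell cannot be told apart.

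With the lower threshold of 0.25 used in the methods of the study, 6 of 9 members were higher at 5 μM (NFE2L2, KEAP1, HMOX1, NQO1, GCLC and TXNRD1), where 36.5% of all genes were, and 0 of 9 were lower, where 45.1% were. At 2.5 μM, 7 of 9 were higher, the same 6 genes and OSGIN1, against 36.4% of all genes, and 1 of 9 (SRXN1) was lower, against 43.4%. SRXN1 met the FPKM condition there through its DMSO value alone, so its count as lower carries no weight. With the libraries rescaled without mitochondrial and small RNA genes, a planned setting whose combination with the 0.25 threshold was added after the data were seen, the tally at 5 μM became 3 higher (NFE2L2, HMOX1 and GCLC) and 3 lower (GCLM, SRXN1 and OSGIN1), against 22.9% and 60.1% of all genes. At 2.5 μM it became 5 higher and 1 lower, against 24.6% and 56.2%.

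**Figure D1:**
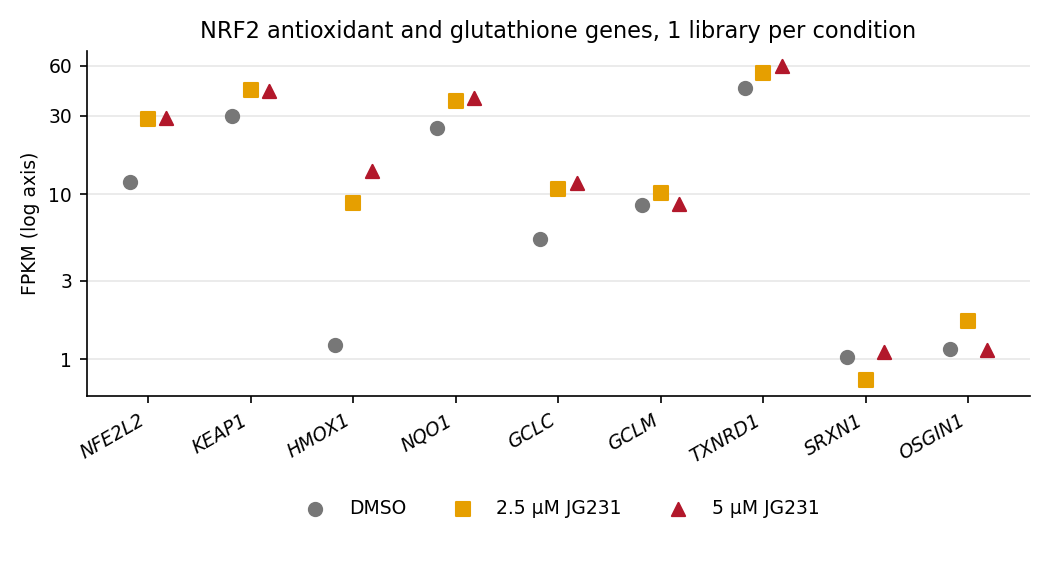
FPKM (log axis) of the 9 genes in the DMSO (grey circles), 2.5 μM JG231 (orange squares) and 5 μM JG231 (red triangles) libraries, 1 library each, so no error bars are drawn. HMOX1 reads 1.21 FPKM in DMSO and 13.9 FPKM with 5 μM JG231, while TXNRD1 is highest in every library and SRXN1 lowest.

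**Figure D2:**
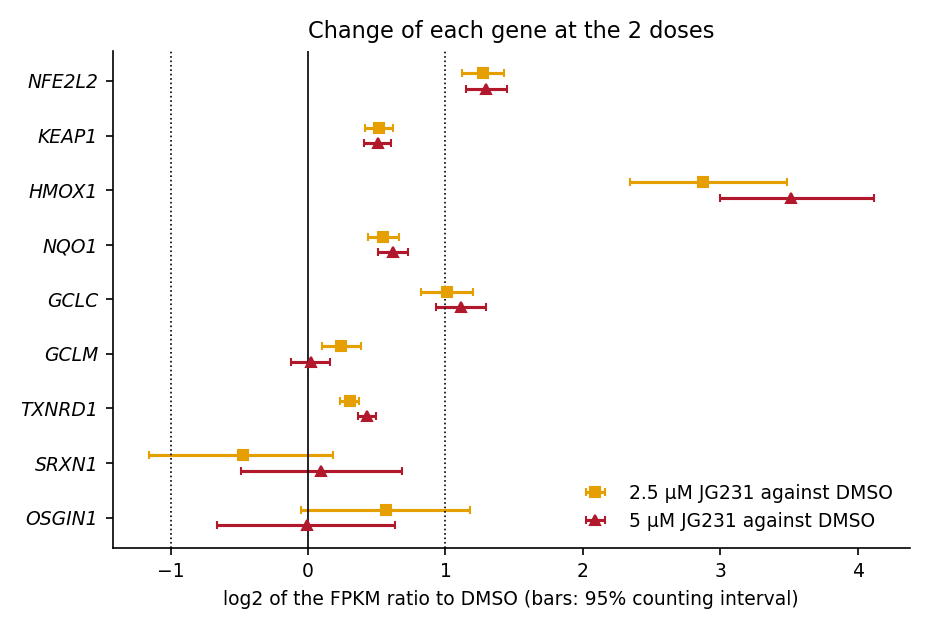
log2 of the plain FPKM ratio to DMSO at 2.5 μM (orange squares) and 5 μM (red triangles), with 95% counting intervals as bars and dotted lines at 1 and -1. The HMOX1 intervals, 2.35 to 3.49 and 3.00 to 4.11, lie above those of the other 8 genes, and the intervals of SRXN1 and OSGIN1 span 0 at both doses.

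Among the regulators, NFE2L2 had 11.8 FPKM in the DMSO library, 28.5 in the 2.5 μM library and 29.0 in the 5 μM library. Both JG231 libraries were above DMSO and close to each other. The log2 changes were 1.26 (95% counting interval 1.12 to 1.43) and 1.29 (1.15 to 1.45) against a spread of 0.25. NFE2L2 (ENSG00000116044) lies on the minus strand of chromosome 2, where its canonical transcript covers 177230308 to 177264727 (GENCODE release 44 on GRCh38). Longer isoforms in that annotation overlap HNRNPA3 and AGPS on the opposite strand. HNRNPA3 was lower with JG231, at 55.2, 46.5 and 36.1 FPKM, and AGPS had 6.64, 8.46 and 7.96 FPKM in DMSO, 2.5 μM and 5 μM. Whether counting used the strand is not given in the sources used here.

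KEAP1, the sensor that holds NRF2 low, had 29.7 FPKM in the DMSO library, 42.6 in the 2.5 μM library and 42.3 in the 5 μM library. Its log2 changes were 0.52 (0.41 to 0.62) and 0.51 (0.41 to 0.61) against a spread of 0.23, so that its transcript was 1.43-fold and 1.42-fold the DMSO level, less than for NFE2L2. KEAP1 (ENSG00000079999) lies on the minus strand of chromosome 19, 10486125 to 10503356 for the canonical transcript.

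HMOX1, which encodes the inducible haem oxygenase that opens haem to biliverdin, iron and carbon monoxide, had the largest change from DMSO on the log2 scale. It had 1.21 FPKM in the DMSO library, 8.92 in the 2.5 μM library and 13.9 in the 5 μM library, or about 30, 282 and 519 fragments. Its DMSO value stands on few fragments, and even so its interval lay above the change of every other member at both doses. The log2 changes were 2.78 and 3.41, 7.34-fold and 11.4-fold as plain ratios, against a spread of 0.31. Among the 9 genes HMOX1 stood in position 7 by FPKM in DMSO and at 2.5 μM, and in position 5 at 5 μM. HMOX1 (ENSG00000100292) lies on the plus strand of chromosome 22, with its canonical transcript at 35381096 to 35394207. At 1554 bases this is the shortest canonical transcript of the set, and changes fell with transcript length in these libraries, with a Spearman correlation across 11836 protein-coding genes of -0.35 at 5 μM and across 11809 of -0.24 at 2.5 μM. Genes in such a correlation share their libraries and are not replicates. With the length trend removed, the HMOX1 change was 2.51 at 2.5 μM and 3.03 at 5 μM.

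The subunits of glutamate-cysteine ligase, which makes the first and limiting step of glutathione synthesis, went apart. GCLC, the catalytic subunit, had 5.38 FPKM in the DMSO library, 10.8 in the 2.5 μM library and 11.6 in the 5 μM library, and its log2 changes were 0.996 (0.83 to 1.20) and 1.10 (0.93 to 1.30) against a spread of 0.32. GCLM, the modifier subunit, had 8.62 FPKM in the DMSO library, 10.2 in the 2.5 μM library and 8.75 in the 5 μM library, with log2 changes of 0.24 (0.10 to 0.39) and 0.02 (-0.12 to 0.16), both within its spread of 0.32. The counting intervals of the subunits did not overlap at either dose. The printed GCLM window held a match of the element core and the GCLC window did not. Bases farther upstream were not searched for either gene, and a link between matches and changes was not tested. By FPKM, GCLM was the higher of the pair in DMSO and GCLC at 5 μM. The order within a library depends on the length used for each gene. GCLC has 8618 bases of annotated exons and 3785 in its canonical transcript, and GCLM has 5426 and 4883. Canonical transcripts cover 53497341 to 53545101 of chromosome 6 for GCLC (ENSG00000001084) and 93885199 to 93909430 of chromosome 1 for GCLM (ENSG00000023909).

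TXNRD1, the cytosolic selenoprotein that reduces thioredoxin, was the highest of the 9 genes in every library, with 44.2 FPKM in the DMSO library, 54.5 in the 2.5 μM library and 59.5 in the 5 μM library. Its log2 changes of 0.30 (0.23 to 0.37) and 0.43 (0.36 to 0.49) were 1.23-fold and 1.35-fold, against a spread of 0.22. TXNRD1 (ENSG00000198431) covers 104215779 to 104350307 on the plus strand of chromosome 12. RPL18AP3, a processed pseudogene of a ribosomal protein gene, lies inside it on the same strand and had 101.4 FPKM in the DMSO library, 243 in the 2.5 μM library and 307 in the 5 μM library. The part of such reads in the TXNRD1 value was not tested.

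NQO1, a quinone reductase widely used as a marker of NRF2 activity, had 25.1 FPKM in the DMSO library, 36.8 in the 2.5 μM library and 38.6 in the 5 μM library. Its log2 changes were 0.55 (0.44 to 0.66) and 0.62 (0.51 to 0.72) against a spread of 0.26, close in size to those of KEAP1. The gene (ENSG00000181019) lies on the minus strand of chromosome 16, with its canonical transcript at 69709401 to 69726560.

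SRXN1 and OSGIN1 were near 1 FPKM in every library. SRXN1 encodes sulfiredoxin, which repairs over-oxidised peroxiredoxins. It had 1.04 FPKM in the DMSO library, 0.746 in the 2.5 μM library and 1.11 in the 5 μM library, with log2 changes of -0.43 and 0.09. OSGIN1, an oxidative stress-induced growth inhibitor, had 1.15 FPKM in the DMSO library, 1.70 in the 2.5 μM library and 1.14 in the 5 μM library, with log2 changes of 0.53 and -0.01. The spread at this level was 1.11 and 0.94, so the changes of both genes were smaller than their spread. SRXN1 (ENSG00000271303) is on chromosome 20, 646615 to 653200, and OSGIN1 (ENSG00000140961) on chromosome 16, 83953240 to 83966332.

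The order of levels was nearly the same in the 3 libraries. TXNRD1, KEAP1, NQO1 and NFE2L2 held the first 4 positions in each, and OSGIN1 and SRXN1 the last 2. Between them GCLM, GCLC and HMOX1 ran in that order in DMSO, whereas at 5 μM the order was HMOX1, GCLC and GCLM. Neighbours in the order that differed by less than the spread were KEAP1 and NQO1 at both doses, HMOX1 and OSGIN1 in DMSO, GCLC, GCLM and HMOX1 at 2.5 μM, HMOX1 and GCLC at 5 μM, and OSGIN1 and SRXN1 in DMSO and at 5 μM. KEAP1 and NQO1 in DMSO, at 29.7 and 25.1 FPKM, differed by more than the spread of KEAP1 and less than that of NQO1. The spread comes from differences of the same gene between the JG231 libraries. It serves here as a scale only and does not measure the error of a difference between genes. The order also depends on the length used for each gene.

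The JG231 libraries were also compared with each other, without DMSO. At 5 μM against 2.5 μM, 0 of 9 members were past the fold upwards, where 7.47% of 14197 genes were, and 0 of 9 downwards, where 8.09% were. HMOX1 was 1.56-fold higher at 5 μM, a log2 difference of 0.63 (0.43 to 0.86) beyond its spread of 0.31. TXNRD1, at 0.13, and GCLM, at -0.22, differed between the doses by less than their spread, although their counting intervals did not include 0. Past the 0.25 threshold there were HMOX1 and SRXN1 upwards, 2 of 9 against 26.8% of all genes, and OSGIN1 downwards, 1 of 9 against 30.1%. SRXN1 met the FPKM condition in this comparison through its 5 μM value alone. The differences of SRXN1, 0.52, and OSGIN1, -0.54, were within their spread, although the OSGIN1 counting interval, -1.13 to -0.04, did not include 0. For NFE2L2, KEAP1, NQO1 and GCLC the difference between the doses lay between -0.01 and 0.10, and each interval included 0 (for NFE2L2, -0.08 to 0.13).

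The FPKM values were deposited without scaling between libraries, and mitochondrial and small RNA genes took 40.5% of the FPKM sum in DMSO, 24.6% at 2.5 μM and 29.2% at 5 μM. Rescaling the libraries without these genes lowered every gene by 0.29 at 2.5 μM and by 0.38 at 5 μM on the log2 scale, apart from the pseudocount. HMOX1 alone was then past the fold at both doses, 1 of 9 members beside 8.31% of all genes, with a log2 change of 3.05 at 5 μM, while NFE2L2 had 0.97 and 0.91 and GCLC 0.71 and 0.72. KEAP1 had 0.22 and 0.13, NQO1 0.26 and 0.24, and TXNRD1 0.01 and 0.05, so that most of the change of these genes depended on the scaling. The direction of GCLM turned to -0.05 at 2.5 μM and -0.36 at 5 μM, that of SRXN1 at 5 μM to -0.26, and OSGIN1 at 5 μM went to -0.36. Over all genes the upward share of those past the fold at 5 μM went from 37.6% to 19.4%, and at 2.5 μM from 37.4% to 21.9%. The differences between members within a library are not moved by such scaling.

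**Figure D3:**
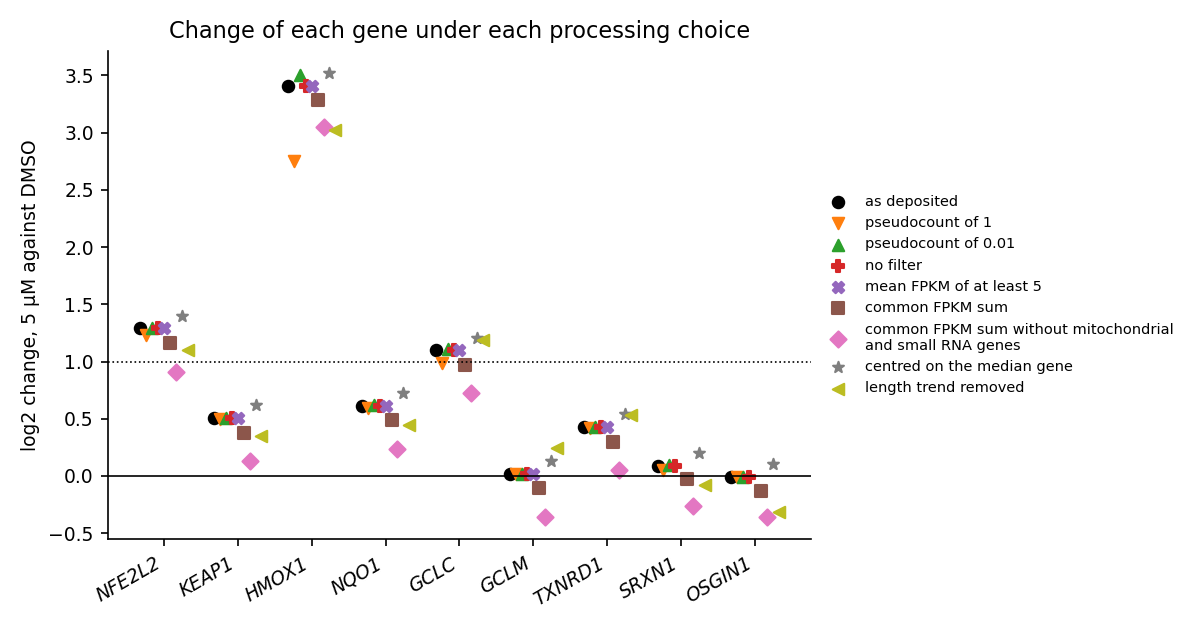
log2 change at 5 μM against DMSO for each gene under the values as deposited (black circles) and 8 other processing choices (coloured markers, 7 for SRXN1 and OSGIN1), with a dotted line at 1. HMOX1 stays between 2.75 and 3.52, NFE2L2 between 0.91 and 1.40 and GCLC between 0.72 and 1.21, while GCLM, SRXN1 and OSGIN1 fall on both sides of 0.

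Other genes of the pathway were examined in 7 lists with 65 genes. At 5 μM 11 of the 58 genes over 1 FPKM were past the fold upwards and 2 downwards, and at 2.5 μM 8 of 56 upwards and 3 downwards, 1 of the latter (NQO2) counted only through its DMSO value. After rescaling without mitochondrial and small RNA genes the counts were 9 upwards and 6 downwards at 5 μM and 6 and 6 at 2.5 μM, and with the length trend removed they were 7 and 5 at 5 μM and 8 and 4 at 2.5 μM. In the values as deposited 14.7% of all genes were past the fold upwards and 24.3% downwards at 5 μM, and 12.9% and 21.7% at 2.5 μM. Among genes with a mean of at least 5 FPKM the downward shares were 7.48% and 6.30%. After the rescaling the shares of all genes were 8.31% upwards and 34.6% downwards at 5 μM, and 8.31% and 29.6% at 2.5 μM. With the length trend removed they were 11.3% and 24.8% at 5 μM, and 10.9% and 23.0% at 2.5 μM.

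Among 11 partners and regulators of NRF2, 2 were past the fold upwards at both doses, MAFF and SQSTM1, and NFE2L3 was past it downwards at 5 μM, with 12.6 FPKM in the DMSO library, 9.08 in the 2.5 μM library and 5.92 in the 5 μM library. MAFF, a small MAF protein, had 2.99 FPKM in the DMSO library, 10.2 in the 2.5 μM library and 15.0 in the 5 μM library. SQSTM1 encodes p62, an autophagy receptor that binds KEAP1, and it had 30.5, 85.9 and 117 FPKM. BACH1, the repressor of HMOX1, had 3.12, 5.95 and 4.66 FPKM, log2 changes of 0.91 and 0.56. The other small MAF genes did not reach the fold, and CUL3 was below DMSO at both doses with log2 values of -0.34 and -0.41.

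Of 15 genes of glutathione supply and use, 3 were past the fold upwards at both doses and GPX2 was past it downwards at 2.5 μM, over 14 genes above 1 FPKM at 2.5 μM and 15 at 5 μM. SLC3A2, the shared heavy chain of several amino acid exchangers, had 38.0 FPKM in the DMSO library, 430 in the 2.5 μM library and 487 in the 5 μM library. SLC7A11, which pairs with SLC3A2 to import cystine and is a textbook NRF2 target, had 3.59, 4.03 and 3.94 FPKM, log2 changes of 0.16 and 0.13. GPX1, a cytosolic glutathione peroxidase, had 67.4, 152 and 183 FPKM. GPX4, which reduces lipid peroxides, had 123, 393 and 486 FPKM. The canonical transcripts of GPX1 and GPX4 are short, 899 and 851 bases, and the part of the length trend in their changes was not tested. GSTP1, a transferase often silenced in prostate adenocarcinoma, had 4.85, 4.52 and 2.46 FPKM. The median of the list was 0.07 at 2.5 μM and 0.13 at 5 μM, and its sign turned with scaling, to -0.15 and -0.24 after rescaling without mitochondrial and small RNA genes and to -0.12 at 5 μM with a common FPKM sum.

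No gene of the 10 in the thioredoxin and peroxiredoxin list was past the fold upwards, and PRDX1 was past it downwards at both doses, with 177 FPKM in the DMSO library, 81.0 in the 2.5 μM library and 83.9 in the 5 μM library. PRDX1, an abundant peroxidase that scavenges hydrogen peroxide, is known as an NRF2 target too, and it has processed pseudogenes that could share its reads. PRDX5 had 121 FPKM in DMSO and 206 at 5 μM, and TXNRD2, the mitochondrial reductase, had 2.21 and 3.33 FPKM. The list medians were -0.19 at 2.5 μM and 0.15 at 5 μM. At 5 μM the sign was lost in other settings, with -0.23 after rescaling without mitochondrial and small RNA genes, -0.33 with the length trend removed and -0.05 over genes with a mean of at least 5 FPKM, and at 2.5 μM the rescaled median was -0.48.

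In the NADPH list, 5 of 6 genes were above 1 FPKM and 1 was past the fold upwards at both doses. This was TKT, transketolase of the pentose phosphate pathway, at 41.6, 99.9 and 111 FPKM in DMSO, 2.5 μM and 5 μM. PGD had log2 changes of 0.48 and 0.43 and IDH1 of 0.40 and 0.54.

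Haem and iron handling had the highest list median, 0.91 at 2.5 μM over 7 genes and 0.87 at 5 μM over 8, in the values as deposited. ABCB6 entered at 5 μM through that library alone, with 1.25 FPKM against 0.867 in DMSO. The medians of the doses therefore cover different genes, and their difference carries no weight. The list median was 0.37 and 0.50 after rescaling without mitochondrial and small RNA genes, and 0.49 and 0.50 with the length trend removed. At 5 μM 4 of 8 were past the fold upwards (HMOX2, BLVRB, FTH1 and FTL) and at 2.5 μM 2 of 7 (HMOX2 and FTH1). FTH1, the ferritin heavy chain that stores iron, had 214 FPKM in the DMSO library, 918 in the 2.5 μM library and 1165 in the 5 μM library. FTL, the light chain, had 220, 436 and 489 FPKM. FTH1 and FTL have processed pseudogenes that could share reads. HMOX2, the constitutive haem oxygenase, had 7.96, 23.1 and 20.9 FPKM. BLVRB, a biliverdin reductase, had 13.8, 26.0 and 41.3 FPKM.

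In the list of quinone and carbonyl detoxification, 6 of 12 genes were above 1 FPKM and none of them was past the fold upwards. AKR1C1, AKR1C2, AKR1B1 and AKR1B10, aldo-keto reductases often used to read NRF2 activity, were below 1 FPKM in every library, and AKR1C3 had 6.06, 9.43 and 7.37 FPKM. The AKR1C genes are near-identical copies, so their split of reads is uncertain. NQO2, a paralogue of NQO1, was past the fold downwards at 2.5 μM, with 2.21 FPKM in the DMSO library, 0.777 in the 2.5 μM library and 1.38 in the 5 μM library. On about 38 and 17 fragments by canonical length, NQO2 met the FPKM condition there through its DMSO value alone, so this count as lower carries no weight. EPHX1 had 54.2, 41.9 and 46.1 FPKM. Among SOD1, SOD2 and CAT, catalase was past the fold at 5 μM, with 9.94, 17.6 and 22.1 FPKM, and SOD2 had 5.05, 3.77 and 3.57 FPKM.

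**Figure D4:**
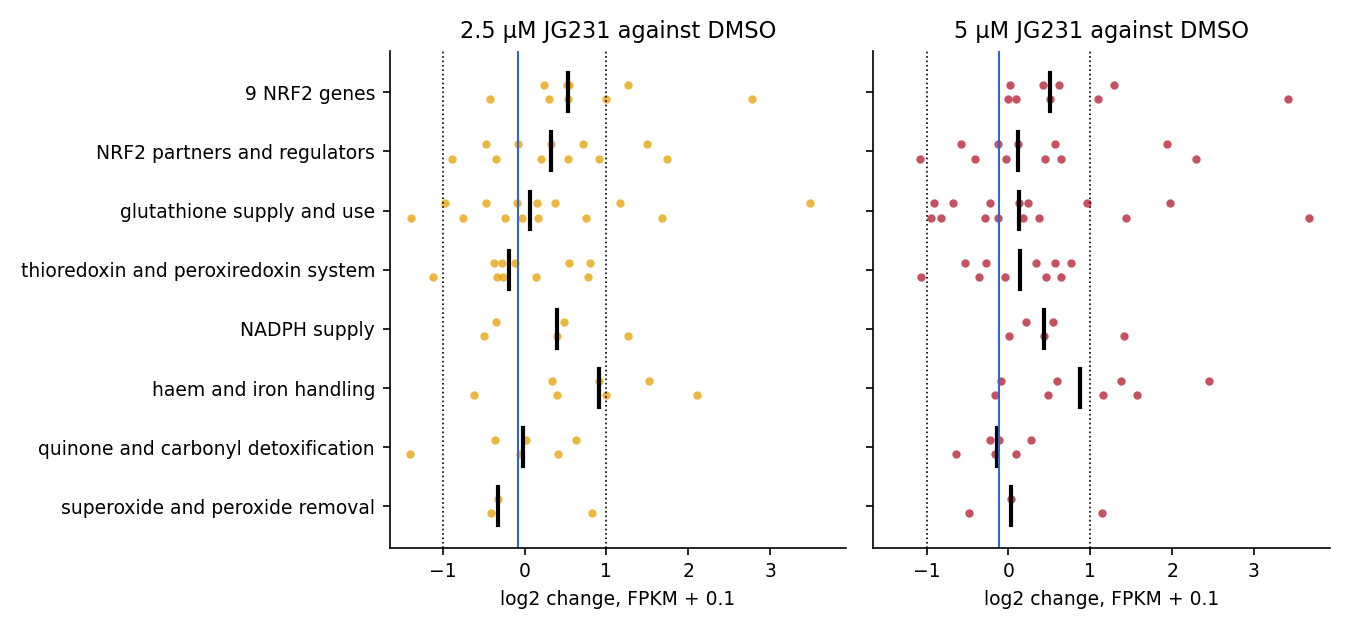
log2 change (FPKM + 0.1) against DMSO at 2.5 μM (left) and 5 μM (right) for the genes over 1 FPKM of the 9-gene set and of 7 pathway lists, 1 dot per gene. Black bars are list medians, the blue line is the median over all genes (-0.08 and -0.11), and dotted lines mark 1 and -1. The haem and iron list has the highest median at both doses, 0.91 and 0.87.

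The pattern of HMOX1, the member with the largest change, was compared with 7288 genes of at least 5 FPKM on average by the distance between pairs of log2 changes, over 3 libraries. The nearest was CEBPB, at a distance of 0.31, with 54.7 FPKM in the DMSO library, 434 in the 2.5 μM library and 497 in the 5 μM library. CEBPB encodes a stress-responsive transcription factor and had log2 changes of 2.99 and 3.18. LARP6, an RNA-binding protein gene, followed at 0.35 with 1.91, 13.8 and 16.7 FPKM, and RPL22L1, a ribosomal protein paralogue, at 0.36 with 4.97, 42.3 and 46.2 FPKM. SNHG17, a small nucleolar RNA host gene, lay at 0.38, and the HLA pseudogene HLA-H, whose reads cannot be told from those of related HLA genes, at 0.41.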

How the data were processed

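RNA-seq of 3 H660 libraries was analysed. The study's methods name HISAT for alignment and StringTie for quantification by the authors, and the submitters' processing notes name HISAT2, featureCounts and GRCh38; versions are not given in the sources used here. The authors deposited FPKM values, 1 column per library, not scaled between libraries. Identifiers of 58207 among 58735 genes were found in GENCODE release 44. No count test was run on FPKM. Fragments were estimated as FPKM times canonical transcript length divided by the value of 1 fragment. That value was read from genes with 1 transcript (62.2, 49.1 and 41.6 FPKM bp in DMSO, 2.5 μM and 5 μM). For genes with several transcripts the estimates may be low, and the intervals may then be too wide. In DMSO canonical lengths return 10.7 M of the 16.1 M fragments, and the lengths of all annotated exons return 16.8 M. The 9 genes, the 7 lists and the comparisons were chosen with earlier results of these data known. Named genes were all members, up to 3 genes per list with the largest smaller change of the 2 doses in 1 direction, and the 5 genes nearest in pattern to the leading member; other genes in the text were named after their values were seen. Clone-based names counted as no symbol, and of rows sharing a symbol the highest was used. Alternatives were pseudocounts of 1 and 0.01, other filters, 2 rescalings, centring, removal of the length trend (lowess, fraction 0.3) and a threshold of 0.25. Some genes are not reported here. Code was tested on simulated data. Tools were statsmodels 0.14.6 for lowess, scipy 1.17.1 for intervals, matplotlib 3.10.9 for figures, pandas 2.3.3 and numpy 2.4.6, in Python 3.11.15.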

Additional observations from a re-analysis of the deposited data

How the results depend on the processing

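With 1 library per condition no setting could leave out a replicate. No paired analysis was possible because each group has 1 library and no test was run. When mitochondrial and small RNA genes were left out of the scaling, the median change of the 9 genes went to 0.26 at 2.5 μM and 0.13 at 5 μM and 1 member was past the fold at each dose, beside 8.31% of all genes upwards; the cause was not tested. Rescaling to a common FPKM sum moved the median of 5 μM against 2.5 μM to -0.11, from 0.07. A threshold of 0.25 gave 7 higher and 1 lower members at 2.5 μM, 6 higher at 5 μM, and 2 higher and 1 lower at 5 μM against 2.5 μM. With the rescaling and the threshold of 0.25 together, a combination added after the data were seen, there were 5 higher and 1 lower at 2.5 μM, 3 higher and 3 lower at 5 μM, and 2 higher and 2 lower at 5 μM against 2.5 μM, the last beside 21.0% and 36.7% of all genes. Of the recomputed list medians, 44 moved beyond the median counting error of the members and 124 did not. Of the recomputed changes of single members, 38 moved beyond their own counting error and 172 did not. Filters on level cannot move a single gene's change. HMOX1 stayed past the fold under all 8 settings tried, lowest with a pseudocount of 1, where it was 2.16 at 2.5 μM and 2.75 at 5 μM. GCLM, SRXN1 and OSGIN1 held both signs over the settings at 5 μM. Depth limits SRXN1, whose single transcript had 38 to 67 fragments.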

Other observations

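Ratios of paired genes within a library, chosen after their values were seen, do not depend on scaling between libraries. Their level depends on the length used for each gene. The ratio of GCLC to GCLM FPKM was 0.624 in DMSO, 1.06 at 2.5 μM and 1.33 at 5 μM. NFE2L2 to KEAP1 was 0.397, 0.670 and 0.686. The ratio of inducible to constitutive haem oxygenase transcripts, HMOX1 to HMOX2, was 0.153, 0.386 and 0.666, although HMOX2 was itself higher with JG231. Each value is of 1 library.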
